A study of Mus musculus with 8 samples.

Results

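Pericytes were described in cortical tissue of the mouse at postnatal day 14, taken from the visual area, by single-nucleus RNA sequencing of nuclei without the neuronal protein NeuN. They are the nuclei that the authors named PC in their table, 725 of 44021 nuclei (1.65%), and 12.0% of the 6032 vascular and leptomeningeal nuclei. The latter comprise PC, endothelial cells (EC) and the classes VLMC-Col15a1, VLMC-Slc16a11 and VLMC-Pia, where VLMC stands for vascular and leptomeningeal cell. There were 8 libraries in 4 groups of 2, each group with 1 male and 1 female library, and each library pooled tissue of 2 C57BL/6J mice. VGlut2 WT mice carried floxed VGlut2 alleles without a cre, and VGlut2 cKO mice carried the same floxed alleles with a cre under the RORα gene (labelled ROR acre), a gene active in thalamic neurons. Ip3r2 WT mice were the controls of Ip3r2 KO mice, which lack the type 2 IP3 receptor. Which cells recombined was not examined here.

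Pericytes sit on the wall of capillaries, inside the basement membrane they share with EC. They are recruited by platelet-derived growth factor that EC secrete and that pericytes bind through the receptor Pdgfrb, and in the brain they are known for keeping the blood-brain barrier closed and for regulating capillary flow. EC line the vessels, VLMC are fibroblast-like cells of the meninges and of larger vessels, and perivascular macrophages (PVM) lie in the space around such vessels. The deposited table holds no expression values, so Pdgfrb, the regulator of G protein signalling Rgs5, the potassium channel subunit Kcnj8 and the deleted genes were not analysed here, and the class name PC is the authors' own. Each nucleus comes with its class, its number of unique molecular identifiers (UMIs, distinct captured RNA molecules), its number of detected genes, its share of mitochondrial UMIs and its place in the authors' embeddings.

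Libraries held 4767 to 5920 nuclei and 8824112 to 12948023 UMIs, and pericytes gave 888588 UMIs in all. A total of 237 cell barcodes occurred in more than 1 library, and 10 of the 475 nuclei with such a barcode were pericytes. In the authors' UMAP, where distance reflects the same gene expression that defined the classes, pericytes formed a closed group: for all 725, each of the 15 nearest nuclei was also a pericyte. Of these neighbours 12.6% came from the same library as the nucleus. Single libraries held 9.66% to 14.5% of all pericytes. The authors corrected for batch before they computed the coordinates, so how libraries mix in them is partly set by that step. The same held with 5 or 30 neighbours and in the t-SNE coordinates. These distances carry no test, since the classes and coordinates come from the same genes.

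How frequent pericytes were in each library was examined first. On average pericytes made up 1.66% ± 0.289 of a library (SD, n = 8 libraries). Their share was 1.68% in the VGlut2 WT male library, 1.31% in the VGlut2 WT female, 1.35% in the VGlut2 cKO male and 1.53% in the VGlut2 cKO female. It was 2.18% in the Ip3r2 WT male library, 1.56% in the Ip3r2 WT female, 1.91% in the Ip3r2 KO male and 1.73% in the Ip3r2 KO female. WT and mutant libraries overlapped in both models, and the highest and the lowest share were both found in WT mice. Each share rests on 70 to 105 pericytes. The 95% Wilson interval, which covers counting error only, ran from 1.04% to 1.65% in the VGlut2 WT female library and from 1.80% to 2.64% in the Ip3r2 WT male. Counting alone would give an SD of 0.172 percentage points. The coefficient of variation over libraries was 17.5%, and it was 24.9% for EC and 22.9% to 25.2% for the VLMC classes. Pericytes were the 12th most frequent of 17 classes and had the 5th lowest coefficient of variation.

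**Figure D1:**
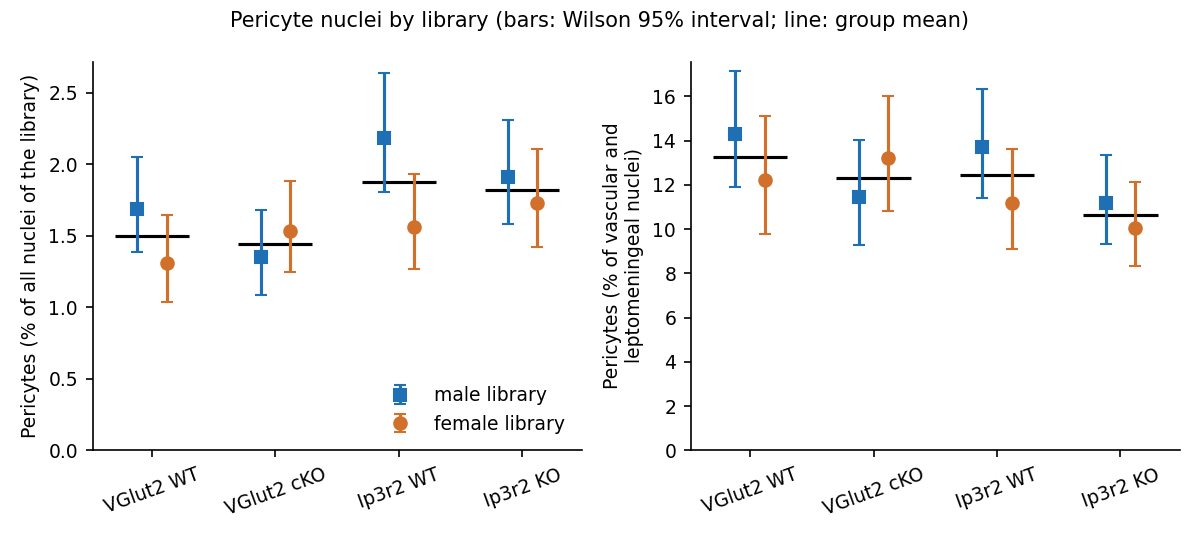
Pericytes as a percentage of all nuclei (left) and of the vascular and leptomeningeal nuclei (right) of each library, by group. Squares are male and circles female libraries, bars are 95% Wilson intervals and black lines are group means. The shares lie between 1.31% and 2.18% on the left and between 10.1% and 14.3% on the right, with WT and mutant libraries overlapping.

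Against the other vascular classes, pericytes were fewer than EC in 8 of 8 libraries. There were 78.4 pericytes per 100 EC in the VGlut2 WT male library, 60.3 in the VGlut2 WT female, 63.5 in the VGlut2 cKO male and 73.1 in the VGlut2 cKO female. The ratio was 87.4 in the Ip3r2 WT male library, 77.1 in the Ip3r2 WT female, 49.5 in the Ip3r2 KO male and 68.8 in the Ip3r2 KO female. The Ip3r2 KO male library, with the lowest ratio, had the highest share of EC (3.86% of its nuclei, against 2.03% to 2.52% in the other libraries), while its pericyte share of 1.91% was the second highest. Averaged on the log2 scale over libraries, the difference in pericytes relative to EC was -31.0% (exact sign flips over 8 libraries, two-sided, p = 0.00781, which is the smallest p that 8 libraries allow, adjusted p = 0.0104 over 16 classes).

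Pericytes were also fewer than VLMC-Col15a1 (-69.8%) and than VLMC-Pia (-28.8%), in 8 of 8 libraries each (exact sign flips, adjusted p = 0.0104 for both). Relative to VLMC-Slc16a11 they were lower in 4 and higher in 4 libraries, with a mean difference of -3.6% and a range from -28.0% to 25.1% over libraries (exact sign flips, adjusted p = 0.667). They were lower than PVM in 7 of 8 libraries, with a mean difference of -19.5%, which did not pass the adjusted test (exact sign flips, adjusted p = 0.0673). Without the Ip3r2 WT female library, the 1 in which pericytes outnumbered PVM, adjusted p was 0.0192 (exact sign flips). That value adds no evidence, since 7 differences of the same sign always give the smallest p of the test (exact sign flips, p = 0.0156). Of the 16 other classes, 43.8% outnumbered and 31.2% were outnumbered by pericytes past the threshold. Nuclei of a class in a library depend on dissection, release and sorting as well as on the tissue, and fewer cells of a type cannot be told apart from fewer recovered nuclei.

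The share of pericytes was next set against those of the other vascular classes, and no relation passed a test. Over 8 libraries the share of pericytes and that of VLMC-Col15a1 had a Pearson r of 0.67 (exact permutation p = 0.0708) and a Spearman rho of 0.67 (exact permutation p = 0.0831). For EC r was 0.54 (exact permutation p = 0.183) and rho 0.60 (exact permutation p = 0.132). For VLMC-Pia r was 0.56 (exact permutation p = 0.148) and rho 0.67 (exact permutation p = 0.0831), and for VLMC-Slc16a11 r was 0.52 (exact permutation p = 0.192) and rho 0.71 (exact permutation p = 0.0576). For PVM r was 0.21 (exact permutation p = 0.621) and rho 0.10 (exact permutation p = 0.840). With adjustment over the 5 relations, p was 0.240 for r with EC and with each VLMC class, and 0.138 to 0.165 for rho. Without the 2 libraries farthest from the median on the other class, r was 0.81 for EC, 0.64 for VLMC-Col15a1, 0.63 for VLMC-Pia, 0.48 for VLMC-Slc16a11 and 0.17 for PVM (n = 6). With microglia left out of the total, r over 8 libraries was 0.54 for EC, 0.67 for VLMC-Col15a1, 0.51 for VLMC-Pia, 0.43 for VLMC-Slc16a11 and 0.30 for PVM, but without the 2 farthest libraries it was 0.14 for EC, 0.60, 0.28 and 0.48 for these VLMC classes in turn and -0.63 for PVM. The value for EC thus depended on the total used and on those 2 libraries. All shares are of the same total, and each model has 4 libraries, too few for a value within a model. The 4 Ip3r2 libraries had higher shares of each VLMC class than the 4 VGlut2 libraries, without overlap, so these relations cannot be told apart from the model.

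**Figure D2:**
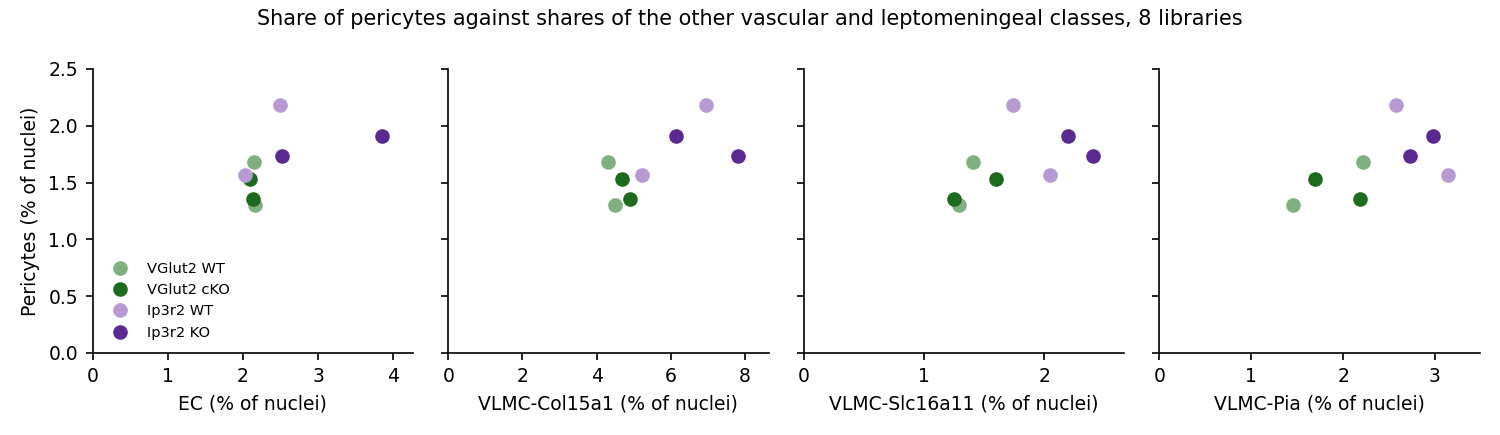
Share of pericytes (% of nuclei, vertical axis) against the share of EC, VLMC-Col15a1, VLMC-Slc16a11 and VLMC-Pia (% of nuclei, horizontal axes), 1 point per library, coloured by group. The Pearson r of the 4 panels is 0.54, 0.67, 0.52 and 0.56, and the Ip3r2 libraries lie mostly to the upper right.

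Pericytes gave little RNA per nucleus. Their median UMIs per nucleus were 867 in the VGlut2 WT male library, 962 in the VGlut2 WT female, 907 in the VGlut2 cKO male and 1152 in the VGlut2 cKO female. They were 1501 in the Ip3r2 WT male library, 1450 in the Ip3r2 WT female, 1382 in the Ip3r2 KO male and 1203 in the Ip3r2 KO female. Pericytes thus ranked between 2nd and 4th lowest of 15 classes, those that had 20 or more nuclei in each library. Within a library the UMIs of single pericytes had a coefficient of variation of 19.5% to 35.9%, and the highest pericyte had 3270 UMIs. Pericytes were 1.66% of the nuclei of a library but gave 1.02% ± 0.266 of its UMIs (n = 8).

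EC of the same libraries had more UMIs than pericytes in 8 of 8 libraries, with medians from 966.5 in the VGlut2 cKO male to 1748.5 in the Ip3r2 KO male. The difference between pericytes and EC was -12.9%, ranging from -21.0% to -2.5% over libraries (exact sign flips, adjusted p = 0.00911 over 14 classes). The difference was -23.9% relative to VLMC-Col15a1, -50.3% to VLMC-Slc16a11 and -56.2% to VLMC-Pia (exact sign flips, adjusted p = 0.00911 each, lower in 8 of 8 libraries). VLMC-Pia had the most UMIs of these classes, with medians of 2060 to 3144. Of the 14 other classes 78.6% had more UMIs than pericytes past the threshold and 7.14%, which is microglia alone, had fewer. Pericytes had 12.5% more UMIs than microglia (exact sign flips, adjusted p = 0.00911, higher in 8 of 8 libraries). Relative to PVM the difference was 0.5%, with a range from -14.0% to 15.3% over libraries (exact sign flips, adjusted p = 0.875).

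**Figure D3:**
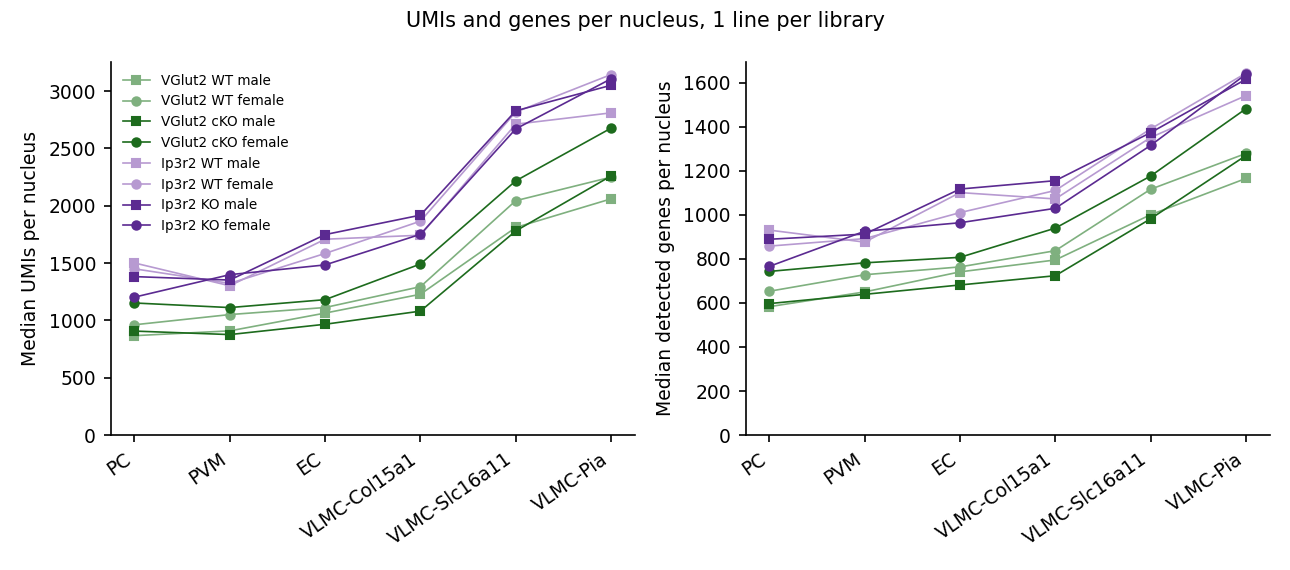
Median UMIs (left) and median detected genes (right) per nucleus of pericytes (PC), PVM, EC and the 3 VLMC classes, with 1 line per library. Pericytes lie between 867 and 1501 UMIs and between 583 and 930.5 genes, below EC of the same library in 8 of 8 libraries on both axes.

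Detected genes placed pericytes lower still. The median pericyte had 583 genes in the VGlut2 WT male library, 653 in the VGlut2 WT female, 597 in the VGlut2 cKO male and 743 in the VGlut2 cKO female. In the Ip3r2 model it had 930.5 genes in the WT male library, 858 in the WT female, 889 in the KO male and 766 in the KO female. Pericytes had the fewest genes of 15 classes in 5 libraries and were 2nd or 3rd lowest in the others. They had fewer genes than 92.9% of the 14 other classes past the threshold, microglia being the exception (0.2%, exact sign flips, adjusted p = 0.891). The difference was -16.1% relative to EC, -21.6% to VLMC-Col15a1, -38.3% to VLMC-Slc16a11 and -48.6% to VLMC-Pia (exact sign flips, adjusted p = 0.00911 each, lower in 8 of 8 libraries). It was -6.4% relative to PVM (exact sign flips, adjusted p = 0.0421, lower in 7 of 8 libraries), a call that was lost in 7 of the 8 fits without 1 library, with adjusted p up to 0.0841.

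Nuclei with few genes were more frequent among pericytes than among EC. Of 725 pericytes, 77 had under 500 detected genes, and 27 of these were in the VGlut2 WT male library. The share was 27.6% in that library, 12.9% in the VGlut2 WT female, 20% in the VGlut2 cKO male and 2.3% in the VGlut2 cKO female, and it was 4.8% to 9.3% in the Ip3r2 libraries. Among EC it was 0.0% to 11.1% and lower than in pericytes in 8 of 8 libraries. The mean difference was 6.43 percentage points, with a range from 0.17 to 18.0 over libraries (exact sign flips, adjusted p = 0.0156). In the Ip3r2 WT female library the share was 4.8% in pericytes and 4.6% in EC. This measure was added after the data were seen, and 85.7% of the 14 other classes had a smaller share of such nuclei than pericytes past the threshold.

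Since a nucleus with more UMIs shows more genes, genes were next compared between nuclei of like UMIs. Among nuclei of 1000 to 1500 UMIs pericytes had 766 ± 37.3 genes and EC 842 ± 47.8 (SD, n = 8 libraries), a difference of -8.9% with a range from -12.8% to -5.2% (exact sign flips, adjusted p = 0.0117 over 9 classes). The difference was -7.7% relative to VLMC-Col15a1, -6.7% to PVM and -6.8% to microglia (exact sign flips, adjusted p = 0.0117 each, lower in 8 of 8 libraries), and 77.8% of the 9 classes had more genes than pericytes past the threshold. Among these were oligodendrocyte precursor cells (OPC, -8.3%, exact sign flips, adjusted p = 0.0301), while the difference to astrocytes was -2.0% and did not pass (exact sign flips, adjusted p = 0.0938). Inside this range the UMIs of pericytes still differed by -3.4% from EC, -6.0% from VLMC-Col15a1 and 3.5% from microglia (exact sign flips, adjusted p = 0.0352, 0.0176 and 0.0176). Of the 9 classes 55.6% had more UMIs inside the range than pericytes and 11.1% fewer.

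A closer match, in bins of 50 UMIs between 500 and 2500, was added after the data were seen. There the difference in genes was -6.4% relative to EC, with -8.0% to -4.5% over libraries, -3.4% to VLMC-Col15a1 and -4.6% to VLMC-Pia (exact sign flips, adjusted p = 0.0113 each, lower in 8 of 8 libraries). For VLMC-Col15a1 it was -7.7% in the wider range. The value for EC rests on 64 to 91 pericytes per library, and that for VLMC-Pia on only 8 to 53. The call for OPC was lost in the bins, at -0.2% (exact sign flips, adjusted p = 0.664), and the difference to astrocytes turned to 4.9% (exact sign flips, adjusted p = 0.0113, higher in 8 of 8 libraries). The difference was -6.6% relative to PVM and -8.7% relative to microglia (exact sign flips, adjusted p = 0.0113 each). Relative to VLMC-Slc16a11 pericytes had 5.0% more genes, higher in 8 of 8 libraries (exact sign flips, adjusted p = 0.0113), with 19 to 49 pericytes used per library. Of the 13 classes that could be compared, 53.8% had more genes at equal UMIs than pericytes and 15.4% had fewer, the latter being VLMC-Slc16a11 and astrocytes.

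**Figure D4:**
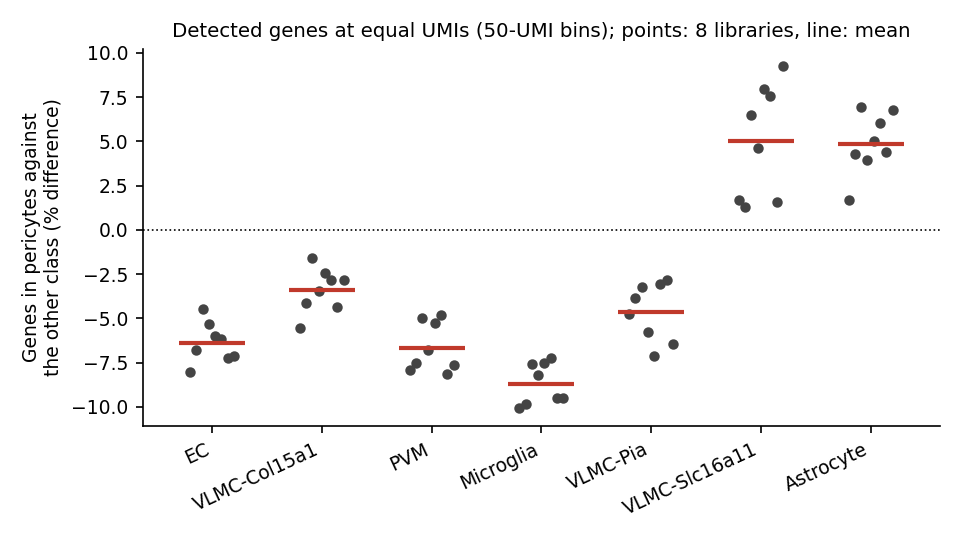
Difference in detected genes between pericytes and 7 other classes at equal UMIs (bins of 50 UMIs), in percent, 1 point per library with the mean as a red line. Pericytes lie below EC, VLMC-Col15a1, PVM, microglia and VLMC-Pia in 8 of 8 libraries and above VLMC-Slc16a11 and astrocytes in 8 of 8. Points for VLMC-Pia rest on 8 to 53 and points for VLMC-Slc16a11 on 19 to 49 pericytes per library.

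Mitochondrial UMIs made up a narrow share of the UMIs counted in pericyte nuclei, from 3.81% in the Ip3r2 WT female library to 4.15% in the Ip3r2 WT male. The mean was 3.98% ± 0.119 (n = 8). In EC it was 4.11% ± 0.15, higher in 8 of 8 libraries, and the odds of a mitochondrial UMI differed by -3.4% in pericytes (exact sign flips, adjusted p = 0.00994 over 14 classes). They differed by -2.9% from VLMC-Col15a1 and by -6.1% from PVM (exact sign flips, adjusted p = 0.00994 each, lower in 8 of 8 libraries), and by -5.8% from VLMC-Slc16a11 (exact sign flips, adjusted p = 0.0168, lower in 7 of 8). For VLMC-Pia the difference was -0.7%, with a range from -6.0% to 3.9% (exact sign flips, adjusted p = 0.539). Of the 14 other classes 57.1% had a higher mitochondrial share than pericytes and 35.7% a lower one. The libraries were made from sorted nuclei, and whether mitochondrial UMIs came from the cell of the nucleus was not tested.

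Whether deletion of VGlut2 in thalamic neurons altered pericytes was asked next. Their share of nuclei was 1.49% ± 0.267 in VGlut2 WT and 1.44% ± 0.127 in VGlut2 cKO (SD, n = 2 libraries each). The difference in log2 odds was -0.04, with a 95% interval of -0.68 to 0.59 (limma, adjusted p = 0.980 over 17 classes). In this comparison 0% of 17 classes passed the threshold, and 0 had an unadjusted p under 0.05. A shift within this interval was not detectable with 2 libraries a group. The log2 ratio of pericytes to EC differed by -0.01 (-0.86 to 0.83, limma, adjusted p = 0.997 over 136 pairs of classes, of which 0% passed), and that to VLMC-Col15a1, VLMC-Slc16a11, VLMC-Pia and PVM by -0.16, -0.11, -0.14 and 0.00 (limma, adjusted p = 0.997 each). Median UMIs differed by 0.16 on the log2 scale (-0.23 to 0.55, limma, adjusted p = 0.960 over 15 classes, of which 0% passed) and median genes by 0.11 (-0.20 to 0.43, limma, adjusted p = 0.923, 0% of 15 passed). The log2 odds of a mitochondrial UMI differed by 0.01 (-0.08 to 0.11, limma, adjusted p = 0.973, 0% of 15 passed).

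Without the VGlut2 cKO male library the UMI difference was 0.34. That fit leaves a single cKO library, assumed to vary like the other groups, so only its size is given. This library, the female, had the most UMIs per pericyte of the VGlut2 model. All 14 other classes also had more UMIs in it than in the VGlut2 WT female library, with a median log2 difference of 0.20.

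Loss of Ip3r2, which mediates the release of stored calcium in astrocytes, was compared in the same way. The pericyte share was 1.87% ± 0.437 in Ip3r2 WT and 1.82% ± 0.126 in Ip3r2 KO (SD, n = 2 libraries each), a difference in log2 odds of -0.02 (-0.66 to 0.61, limma, adjusted p = 0.994). Again 0% of 17 classes passed the threshold, and 1 had an unadjusted p under 0.05. The log2 ratio of pericytes to EC differed by -0.49 (-1.34 to 0.36, limma, adjusted p = 0.992, 0% of 136 pairs passed), and without the Ip3r2 KO male library, the one with the most EC, by -0.25. The ratio to VLMC-Col15a1, VLMC-Slc16a11, VLMC-Pia and PVM differed by -0.23, -0.31, -0.03 and -0.41 (limma, adjusted p = 0.992 each). Median UMIs differed by -0.19 (-0.59 to 0.20, limma, adjusted p = 0.99995, 0% of 15 classes passed), median genes by -0.11 (-0.43 to 0.20, limma, adjusted p = 0.996, 0% of 15) and the log2 odds of a mitochondrial UMI by 0.00 (-0.09 to 0.10, limma, adjusted p = 0.954, 0% of 15). Without the Ip3r2 KO male library the differences were -0.29 for UMIs and -0.22 for genes, and without the Ip3r2 KO female -0.09 and -0.0073.

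Since libraries differ in depth, median pericyte UMIs were also set against the other classes of the same libraries. In the male Ip3r2 pair pericytes had fewer UMIs in the KO library, with a difference of -0.12 on the log2 scale, while all 14 other classes had more, with a median difference of 0.08. In the female pair the pericyte difference was -0.27 and the median of the other classes -0.06. By these medians pericytes had the lowest difference of 15 classes in both Ip3r2 pairs. By the mean of log2 UMIs over nuclei they had it in neither pair. That mean was 10.45 in the WT and 10.44 in the KO male library for pericytes, against 10.46 and 10.41 for mitotic microglia. In the female pair it was 10.41 and 10.27 for pericytes, against 11.31 and 11.15 for astrocytes. In the VGlut2 model pericytes were near the other end by medians. Their difference was 0.07 in the male pair, where the median of the other classes was -0.06. It was 0.26 in the female pair, where the median of the other classes was 0.20. Relative to the other classes of the library, the Ip3r2 difference in pericyte UMIs was -0.23 (-0.38 to -0.08, limma, adjusted p = 0.127) and the VGlut2 difference 0.09. Neither passed the test after adjustment over 15 classes.

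**Figure D5:**
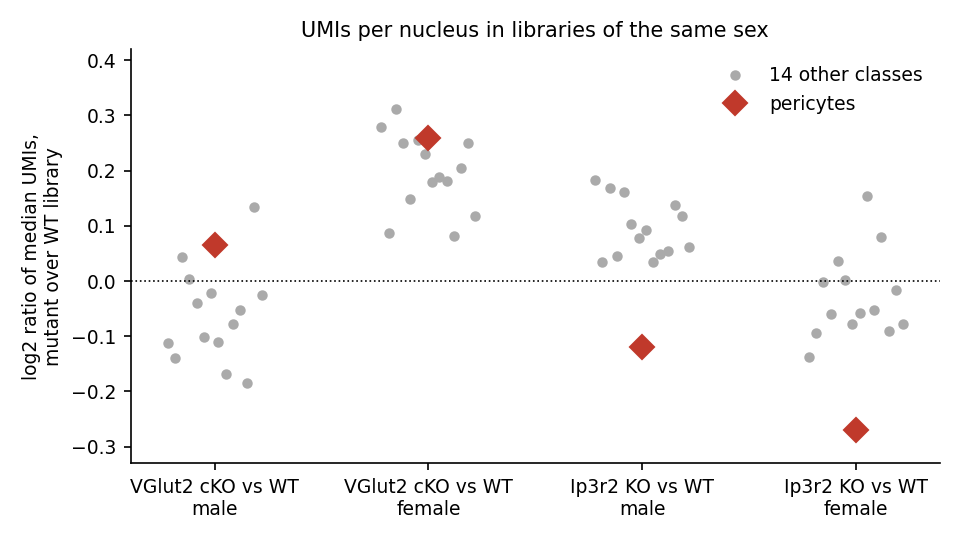
Log2 ratio of the median UMIs per nucleus, mutant over WT library of the same sex, for pericytes (red diamonds) and 14 other classes (grey points). Pericytes lie at -0.12 and -0.27 in the Ip3r2 pairs, below the 14 other classes in each, and at 0.07 and 0.26 in the VGlut2 pairs.

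The effects of the 2 models on pericytes did not differ past the threshold. For the share the difference of the effects, VGlut2 less Ip3r2, was -0.02 (-0.92 to 0.87, limma, adjusted p = 0.959, 0% of 17 classes passed). For UMIs it was 0.36 (-0.20 to 0.91, limma, adjusted p = 0.989, 0% of 15), and for genes 0.22 (-0.22 to 0.67, limma, adjusted p = 0.995, 0% of 15). Both of the latter tests were added after the same-sex pairs had been seen. Without the VGlut2 cKO male library the UMI value was 0.53, in a fit that leaves a single VGlut2 cKO library.

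Between the sexes, the difference in the log2 odds of pericytes, female less male, was -0.20 (-0.69 to 0.28, limma, adjusted p = 0.622, 0% of 17 classes passed). The mutant library had the lower share in both male pairs and the higher share in both female pairs, and limma's test of that difference, added after it was seen, gave 0.45 (-0.57 to 1.47, limma, adjusted p = 0.941, 0% of 17 passed).

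The libraries of the models themselves stood apart. Pericytes had 972 ± 126 UMIs in the VGlut2 libraries and 1384 ± 130 in the Ip3r2 libraries (SD, n = 4 each), with no overlap (exact permutation p = 0.0286, the smallest that 4 against 4 allows, adjusted p = 0.0714 over 5 measures). Genes were 644 ± 72.6 and 861 ± 69.9, again without overlap (exact permutation p = 0.0286, adjusted p = 0.0714, n = 4 each). EC showed a gap of the same kind, with 1081 ± 90.2 and 1631 ± 120 UMIs, and the gap of pericytes ranked 4th of 15 classes. The share of pericytes was 1.47% ± 0.173 and 1.85% ± 0.265 (exact permutation p = 0.0571, adjusted p = 0.0952, n = 4 each), while pericytes per 100 EC were 68.8 ± 8.37 and 70.7 ± 16.0 (exact permutation p = 0.857, n = 4 each). The mitochondrial share was 3.97% ± 0.111 and 3.98% ± 0.144 (exact permutation p = 0.914, n = 4 each). Model, mouse line and day of processing cannot be told apart in this design.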

How the data were processed

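NeuN-negative nuclei were sorted from frozen tissue and barcoded with a droplet kit, with WT and mutant samples processed on the same day. Reads were mapped to mm10, and Cell Ranger is the tool in the submitters' notes on processing. By the methods, the authors discarded barcodes with under 200 detected genes, removed doublets by sample, corrected for batch and clustered all samples together. Input was the table of nuclei that passed these steps, with their classes. Its UMI and gene numbers are raw counts that the authors deposited without normalization. Mitochondrial values, deposited with percent in the header, are a fraction of UMIs, since multiplied by the UMIs it was whole within 0.001 in 44021 of 44021 nuclei. The table's model, genotype and sex were those of the labels in 8 of 8 libraries, and each library held different mice.

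Nuclei were tallied by class and library, with the astrocyte groups joined, which left 17 classes. Shares (log2 odds with 0.5 added), ratios between all pairs of classes, medians of UMIs and genes and mitochondrial log odds were compared with limma (version 3.58.1, R version 4.3.3), with 1 mean per group and the spread shared over 8 libraries. The main fits did not model the processing day that a WT and a mutant library shared. In the fits of UMIs, genes, mitochondrial share and sex, limma gave every class 1 standard error. Their degrees of freedom (60, with 51 for sex and 34 for the mutant by sex term) count classes of a library as independent. Yet classes moved together: all 14 other classes had more UMIs in the mutant library of the VGlut2 female and Ip3r2 male pairs. Intervals and p-values of these fits may thus not reflect the spread between libraries. Adjusted p-values are Benjamini-Hochberg values over all classes or pairs, with a threshold of 0.05. Classes were compared within libraries by two-sided exact sign flips, where no p can be below 0.00781, and models by exact permutation (SciPy version 1.17.1). Percent differences within libraries are mean log2 differences converted to percent. Alternatives were edgeR (version 4.0.16), other filters, means, pseudocounts and each library left out. Scripts were tested on simulated data. The classes named beside pericytes were EC, the VLMC classes and PVM, with neighbours in a ranking. The members, classes and tests were chosen with earlier results of these data known.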

Additional observations from a re-analysis of the deposited data

Results flagged for a closer look

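The pericyte share moved in opposite directions in the 2 sexes, in both models. The difference in log2 odds, mutant less WT, was -0.32 in the male and 0.23 in the female VGlut2 pair. It was -0.20 in the male and 0.15 in the female Ip3r2 pair. The test of the mutant by sex term gave 0.45 in log2 odds (limma, adjusted p = 0.941), so the difference did not pass. Sex may also coincide with the day of processing within a model.

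UMIs and genes per pericyte moved in opposite directions in the 2 models. For median UMIs the log2 ratio of mutant to WT was 0.07 in the male and 0.26 in the female VGlut2 pair, and -0.12 in the male and -0.27 in the female Ip3r2 pair. For median genes it was 0.03 and 0.19 in the VGlut2 pairs, male and female, and -0.07 and -0.16 in the Ip3r2 pairs. The difference between the models was 0.36 for UMIs (limma, adjusted p = 0.989) and 0.22 for genes (limma, adjusted p = 0.995). Neither passed, and each group has 1 library of each sex.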

How the results depend on the processing

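Of 138 values recomputed under another setting with all libraries kept, 125 kept their direction and their side of the threshold. Among these settings no comparison of genotypes gained or lost a call. With only nuclei of 500 or more genes, values between VGlut2 cKO and WT turned positive: 0.10 for the share, 0.11 for the ratio to EC, 0.064 to VLMC-Slc16a11, 0.026 to VLMC-Pia and 0.12 to PVM. The share with edgeR and TMM was 0.057. The VGlut2 effect less the Ip3r2 effect on the share was 0.10 with edgeR and TMM, 0.13 relative to EC and VLMC nuclei and 0.15 with 500 or more genes. Relative to the other classes of the library the mitochondrial VGlut2 difference was -0.0012. With means over nuclei the log2 UMI difference to PVM was -0.022. With 500 or more genes the call of fewer genes than PVM was lost and that of fewer nuclei than PVM was gained. The cause was not tested. A replicate block of same-sex pairs gave 0 calls and turned no direction in 21 fits. The labels tie the replicate number neither to shared mice nor to a shared day of processing.

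Leaving out 1 library turned 28 of 416 values. The share ranged from -0.23 to 0.14 (VGlut2), from -0.27 to 0.22 (Ip3r2) and from -0.27 to 0.22 for the difference of both. The VGlut2 ratio ranged from -0.20 to 0.17 for EC, -0.38 to 0.047 for VLMC-Col15a1, -0.23 to 0.0030 for VLMC-Slc16a11, -0.41 to 0.13 for VLMC-Pia and -0.29 to 0.28 for PVM. The Ip3r2 ratio ranged from -0.47 to 0.021 for VLMC-Col15a1, -0.66 to 0.048 for VLMC-Slc16a11, -0.41 to 0.36 for VLMC-Pia and -0.67 to -0.14 for PVM. Ip3r2 UMIs ranged from -0.29 to -0.094, Ip3r2 genes from -0.22 to -0.0073 and the share in females less males from -0.33 to -0.11. The VGlut2 UMI difference ranged from -0.0099 to 0.34, its excess over Ip3r2 from 0.18 to 0.53 and VGlut2 genes from -0.048 to 0.27. Mitochondrial odds ranged from -0.032 to 0.059 (VGlut2) and -0.059 to 0.067 (Ip3r2). Each of these fits leaves a single library in 1 group, so only sizes are given and calls are not. Against PVM UMIs ranged from -0.021 to 0.039, against VLMC-Pia mitochondrial odds from -0.020 to 0.00061, and against VLMC-Slc16a11 nuclei from -0.11 to 0.0081. The model gap in UMIs ranged from 0.46 to 0.60 (log2), with an exact permutation p of 0.0571 in each of 8 fits, the smallest 3 against 4 libraries allow.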
